A study of Mus musculus with 10 samples.

Results

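The genes described here are 9 genes of cytoplasmic intermediate filaments, namely the keratins Krt5, Krt7, Krt8, Krt14, Krt17, Krt18 and Krt19 together with Vim (vimentin) and Nes (nestin). They were taken by symbol from a table of 24454 genes, and all 9 were present and tested among 13135 genes that passed a filter on low counts. They were measured by RNA sequencing of total RNA from NMuMG/E9, a subclone (subclone 9) of the NMuMG line of normal mouse mammary gland epithelial cells. The cells are thus a single clone, and no other clone was measured. Cells were transfected with siRNA at 20 nM, either an siRNA against Irf1 (siIrf1), which encodes the transcription factor interferon regulatory factor 1, or a control siRNA (siCtr), and all were harvested on day 3. The siIrf1 TGFbeta group (3 libraries, replicates 1, 2 and 3) and the siCtr TGFbeta group (2 libraries, replicates 2 and 3) received recombinant human TGFbeta1 at 2 ng/ml for the last 2 days. The siIrf1 0 d group (3 libraries, replicates 1, 2 and 3) and the siCtr 0 d group (2 libraries, replicates 1 and 3) carried the same siRNAs for the same time without TGFbeta. In this line TGFbeta drives the epithelial-mesenchymal transition (EMT), in which cells lose junctions and take on a spindle shape. No label says whether replicates came from separate cultures, so p-values here speak for the spread among these 10 libraries alone, part of which may be technical.

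Intermediate filaments are the tough, stretch-bearing ropes of the cytoskeleton. Keratins polymerise only as pairs of a type I chain (Krt14, Krt17, Krt18, Krt19) with a type II chain (Krt5, Krt7, Krt8). Krt8 with Krt18 is the ground-state pair of simple epithelia, Krt7 and Krt19 join it in ducts and glands, Krt5 with Krt14 is the pair of basal and myoepithelial cells, and Krt17 is a stress and wound keratin of skin and its appendages. Vimentin builds filaments alone and is the usual filament of mesenchymal cells, while nestin needs a partner such as vimentin and is known from neural and muscle progenitors. A textbook account of EMT has keratin filaments giving way to vimentin filaments.

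Levels are given as CPM, counts scaled by edgeR to the effective size of each library, and "CPM per kb" is CPM divided by the transcript length that the table gives. Changes are log2 fold changes ± SE with p-values adjusted over all 13135 genes by the Benjamini-Hochberg method in edgeR's quasi-likelihood F test, and "rose", "fell" and "called" mean an adjusted p under 0.05. Libraries held 27547649 to 67301646 counts. Irf1 (36.5, 46.2 and 41 CPM in siIrf1 TGFbeta against 106 and 112 CPM in siCtr TGFbeta, and 56.4, 64.1 and 57.7 CPM in siIrf1 0 d against 148 and 129 CPM in siCtr 0 d) was lower in every siIrf1 library. The fibronectin gene Fn1 was higher with TGFbeta, at 1337, 589 and 2412 CPM in siIrf1 TGFbeta against 206, 360 and 186 CPM in siIrf1 0 d, and at 9131 and 9615 CPM in siCtr TGFbeta against 290 and 270 CPM in siCtr 0 d. The epithelial cadherin gene Cdh1 was lower with TGFbeta in siCtr cells alone, at 339 and 363 CPM against 694 and 586 CPM at 0 d. In siIrf1 cells its levels overlapped, at 577, 702 and 722 CPM with TGFbeta against 621, 608 and 581 CPM at 0 d. Replicate 2 of siIrf1 TGFbeta stood apart from its group, with a second principal component of 12.9 against 51.9 and 42.8 in replicates 1 and 3. It also had a GC index (how far low-GC genes exceed high-GC genes, in log2) of -0.4 against 0.65 and 0.77. Within that group replicate 2 was the highest library for 8 of the 9 genes, and replicate 3 the lowest for all 9. The GC index lay between -0.4 and 0.94 in siIrf1 libraries and between -1.37 and -0.47 in siCtr libraries, and transcripts of 8 of the 9 genes were rich in GC (52.3 to 58.9%, the 63.3 to 93.6 percentile of genes tested, against 46.5% for Vim). A trend with GC content and length was therefore also removed from each library. For the 9 genes, values after its removal are given in the siRNA comparisons and the interaction wherever a call or a direction changed. Other values could move as well.

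Krt8 (Entrez gene 16691, minus strand, chr15:101996711-102004342 in GRCm38.p6) and Krt18 (16668, plus strand, chr15:102028216-102032026) lie side by side with their starts facing each other and 23873 bases between them. Krt7 (110310, chr15:101412403-101427806) and Krt5 (110308, chr15:101707069-101712905) lie in the same cluster, although Krt18 is the only type I chain there. The type I genes Krt19 (16669, chr11:100140810-100145926), Krt14 (16664, chr11:100203162-100207510) and Krt17 (16667, chr11:100256215-100261029) form a run on chromosome 11, with 57235 bases between Krt19 and Krt14 and 48704 bases between Krt14 and Krt17. Vim (22352) is at chr2:13574311-13582826 and Nes (18008) at chr3:87971093-87980451. RefSeq (GRCm38.p6) windows of 250 bases were available for 7 of the 9 genes. Of these 6 end at the start of the gene, and that of Krt14 lies inside the span given above and is left out of what follows. The promoters of Krt8, Krt18, Krt7 and Krt5 are printed because all 4 hold CACCTG on either strand, the E-box that Snail and Zeb repressors bind, while differing in their response to TGFbeta. That of Vim is printed beside them as the mesenchymal gene. They are given 5′ to 3′ on the strand of the gene, and capitals mark CACCTG or its reverse complement, the GC box GGGCGG or its reverse complement, and TATAAA. The windows are chr15:102004343-102004592 (minus strand) for Krt8, chr15:102027966-102028215 (plus) for Krt18, chr15:101412153-101412402 (plus) for Krt7, chr15:101712906-101713155 (minus) for Krt5 and chr2:13574061-13574310 (plus) for Vim.
Krt8: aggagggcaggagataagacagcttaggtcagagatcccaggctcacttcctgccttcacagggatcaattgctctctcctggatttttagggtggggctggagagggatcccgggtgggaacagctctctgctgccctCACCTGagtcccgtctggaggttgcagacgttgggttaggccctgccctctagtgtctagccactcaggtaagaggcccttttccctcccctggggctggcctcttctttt
Krt18: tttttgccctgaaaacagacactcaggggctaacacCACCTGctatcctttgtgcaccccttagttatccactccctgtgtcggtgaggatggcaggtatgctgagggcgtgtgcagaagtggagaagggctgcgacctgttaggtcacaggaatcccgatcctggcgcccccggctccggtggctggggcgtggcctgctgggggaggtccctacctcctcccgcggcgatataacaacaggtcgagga
Krt7: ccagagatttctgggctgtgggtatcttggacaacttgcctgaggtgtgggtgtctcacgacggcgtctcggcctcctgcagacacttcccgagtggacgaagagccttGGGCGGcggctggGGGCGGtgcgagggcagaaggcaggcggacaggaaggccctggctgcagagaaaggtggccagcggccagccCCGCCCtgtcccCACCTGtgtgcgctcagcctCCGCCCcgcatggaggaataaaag
Krt5: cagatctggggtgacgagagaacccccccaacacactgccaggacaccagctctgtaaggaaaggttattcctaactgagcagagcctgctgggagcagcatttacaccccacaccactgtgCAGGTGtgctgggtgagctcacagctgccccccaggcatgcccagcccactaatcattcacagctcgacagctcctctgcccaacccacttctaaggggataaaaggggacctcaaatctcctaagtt
Vim: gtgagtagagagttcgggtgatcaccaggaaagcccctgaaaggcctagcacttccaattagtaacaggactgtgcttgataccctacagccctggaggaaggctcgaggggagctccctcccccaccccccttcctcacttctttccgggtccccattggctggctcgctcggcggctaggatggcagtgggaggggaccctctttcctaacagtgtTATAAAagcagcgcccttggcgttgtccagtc

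CACCTG occurred in 17.2% of 32851 RefSeq promoter windows of the same length, GGGCGG in 32.7% and TATAAA in 12.4%, each on either strand. The window of Krt7 held 4 GC boxes, that of Nes held 2, and TATAAA was found in Vim alone of the 6. The AP-1 letters TGANTCA (6.75% of windows), the interferon response letters, GAAA and GAAA with 2 bases between them (2.98%), and the Smad palindrome GTCTAGAC (0.167%) were in none of the 6 windows. These are matches of letters in a short window and say nothing of binding.

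Per length, Krt18 was the most abundant of the 9 transcripts in all 4 groups. Transcripts of the 7 keratins among them were almost wholly those of simple epithelium. Shares below are of the sum over these 7. It leaves out other keratins such as Krt20, at 165 CPM per kb on average in siIrf1 TGFbeta and 140 in siCtr TGFbeta. Krt18 made up 51.5 ± 4.9% of the summed keratin CPM per kb in siIrf1 TGFbeta (SD, n = 3), 59.9 ± 1.55% in siCtr TGFbeta (n = 2), 48.2 ± 2.72% in siIrf1 0 d (n = 3) and 44.7 ± 2.46% in siCtr 0 d (n = 2). Krt8 made up 32.4 ± 3.02% in siIrf1 TGFbeta, 30.6 ± 1.25% in siCtr TGFbeta, 21.9 ± 0.0658% in siIrf1 0 d and 25.9 ± 0.73% in siCtr 0 d. The remainder was mostly Krt19 in the 0 d groups, whereas in siCtr TGFbeta it was mostly Krt7. Krt19 held 11.3 ± 1.89% in siIrf1 TGFbeta, 2.41 ± 0.16% in siCtr TGFbeta, 27.1 ± 2.47% in siIrf1 0 d and 27.9 ± 3.08% in siCtr 0 d. Krt7 held 4.68 ± 0.435% in siIrf1 TGFbeta, 7.01 ± 0.143% in siCtr TGFbeta, 2.68 ± 0.257% in siIrf1 0 d and 1.49 ± 0.118% in siCtr 0 d. These shares are a description with no test, and those of Krt7 depend on its length, 1586 bases in the table against 4094 bases in the longest annotated transcript, which lowers its share to 1.97, 2.97, 1.12 and 0.619% in the same order of groups.

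**Figure D1:**
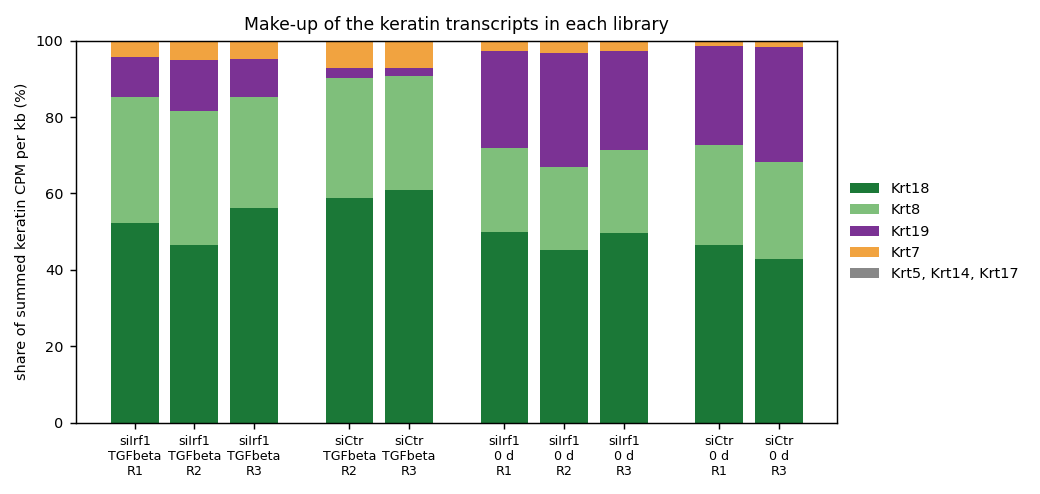
Share of each of the 7 keratins described here in their summed CPM per kb (percent, vertical axis) in each of the 10 libraries, grouped by siRNA and TGFbeta. The Krt19 band is the narrowest in the siCtr TGFbeta libraries (mean 2.41%) and the Krt7 band the widest there (mean 7.01%), while Krt5, Krt14 and Krt17 together are too small to see.

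The sum of the 7 keratins was 5783 ± 1649 CPM per kb in siIrf1 TGFbeta, 9002 ± 431 in siCtr TGFbeta, 5545 ± 398 in siIrf1 0 d and 6218 ± 594 in siCtr 0 d. In siIrf1 cells the order of these means rested on siIrf1 TGFbeta replicate 2, without which the sum with TGFbeta was 5000, below that at 0 d. The log2 ratio of type II to type I chains was -0.76 ± 0.192 in siIrf1 TGFbeta, -0.73 ± 0.0855 in siCtr TGFbeta, -1.61 ± 0.0196 in siIrf1 0 d and -1.40 ± 0.0448 in siCtr 0 d. Type I transcripts thus outnumbered type II transcripts in every group, and by less with TGFbeta. The log2 ratio of Krt8 to its usual partner Krt18 moved less and not in 1 direction, at -0.67 ± 0.271 in siIrf1 TGFbeta, -0.97 ± 0.0961 in siCtr TGFbeta, -1.14 ± 0.0836 in siIrf1 0 d and -0.79 ± 0.0388 in siCtr 0 d. Vim per length stayed below Krt8 in all 4 groups, with a log2 ratio of Vim to Krt8 of -0.63 ± 0.309 in siIrf1 TGFbeta, -1.33 ± 0.176 in siCtr TGFbeta, -0.74 ± 0.0689 in siIrf1 0 d and -1.43 ± 0.0284 in siCtr 0 d. With either siRNA the ratio with TGFbeta was close to that without it, and Vim and Krt8 levels were both higher on average with TGFbeta.

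**Figure D2:**
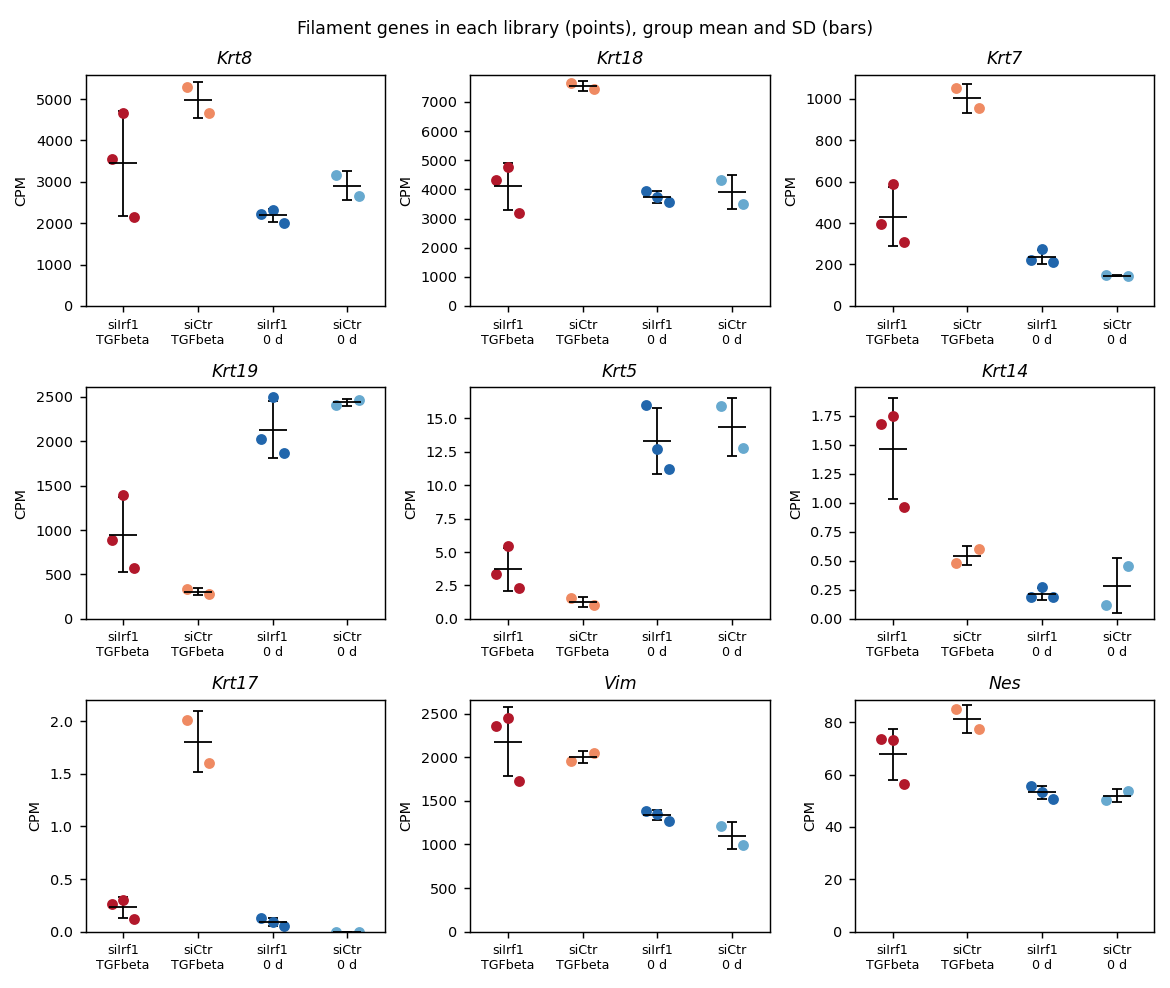
CPM (vertical axis, linear, from 0, scaled per panel) of the 9 genes in each library, where each point is a library and the bars show mean ± SD (n = 3 in siIrf1 groups, n = 2 in siCtr groups). Krt19 and Krt5 are lower in every TGFbeta library than in every 0 d library, Krt17 stands out in siCtr TGFbeta (1.6 and 2.01 CPM), and Vim differs little between the siRNAs.

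The first question is how the filament genes respond to TGFbeta under either siRNA. In siIrf1 cells 3 of the 9 genes rose with TGFbeta (Krt7, Krt14 and Vim) and 2 fell (Krt5 and Krt19), against 21.3% of all genes called, 11.6% higher and 9.71% lower. In siCtr cells, with Irf1 at its usual level, 5 rose (Krt7, Krt17, Krt18, Vim and Nes) and 2 fell (Krt5 and Krt19), against 32.5% of all genes called, 16.1% higher and 16.3% lower. The median log2 fold change of the 9 was 0.65 in siIrf1 and 0.83 in siCtr cells, beside 0.02 for all genes tested in both. All 9 passed the filter, which asked for about 0.298 CPM in 2 libraries, but Krt17 reached that level in no 0 d library and Krt14 in 1 of 5, so that both could pass only with help from the TGFbeta libraries. Krt17 reached it in 1 of 3 siIrf1 TGFbeta and 2 of 2 siCtr TGFbeta libraries, so it was tested only because of siCtr TGFbeta, where it was high. Counts of calls below that include Krt17 carry this limit.

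The calls for the Irf1 siRNA without TGFbeta depended on the treatment of GC content. Without TGFbeta 1 of the 9 was called higher (Krt17) and 0 lower, against 31.8% of all genes called, 16.3% higher and 15.5% lower. The 2 genes with an unadjusted p under 0.05, Krt7 and Krt17, were both higher, and DESeq2 called 2 higher and 0 lower. With the GC and length trend removed 5 were called higher (Krt7, Krt17, Krt18, Krt19 and Nes), and 4 with the replicate block as well (the same without Krt19). The fit with both called 4604 of all genes in either direction. No number of all genes is given for DESeq2 or for the trend removed alone, so those counts of members have no background beside them. With TGFbeta 3 were higher in siIrf1 than in siCtr cells (Krt5, Krt14 and Krt19) and 3 lower (Krt7, Krt17 and Krt18), against 18.0% of all genes called, 9.72% higher and 8.28% lower. The interaction, which tests whether the TGFbeta effect differs between the siRNAs, was called for 3 of the 9, Krt19 (positive) and Krt7 and Krt17 (negative), against 4.12% of all genes, 2.80% positive and 1.32% negative. The comparisons share their control libraries, so their results for a gene are not independent of each other.

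Krt18, the type I chain of the simple epithelial pair, was 4337, 4771 and 3191 CPM in siIrf1 TGFbeta and 7667 and 7432 CPM in siCtr TGFbeta. Krt18 was 3939, 3723 and 3554 CPM in siIrf1 0 d and 4314 and 3486 CPM in siCtr 0 d. Both siCtr TGFbeta libraries lay above all others, and the other 3 groups overlapped. Its change with TGFbeta in siIrf1 cells was 0.13 ± 0.163 (adjusted p = 0.643), and in siCtr cells it rose (0.95 ± 0.201, adjusted p = 0.00499). With TGFbeta it was lower in siIrf1 than in siCtr cells (-0.88 ± 0.18, adjusted p = 0.00839). That call was absent without siCtr TGFbeta replicate 2 (-0.92, adjusted p = 0.0514). The interaction was -0.82 ± 0.258 (adjusted p = 0.122), so a difference in the TGFbeta effect was not shown, although DESeq2 (-0.84, adjusted p = 0.04) and removal of the GC and length trend (-1.21, adjusted p = 0.00483) called it. Without TGFbeta the siRNA effect was -0.06 ± 0.182 (adjusted p = 0.817), and it turned to 0.59 (adjusted p = 0.0102) with the trend removed and to 0.09 without siCtr 0 d replicate 1.

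Krt8, the type II partner of Krt18, was 3542, 4657 and 2138 CPM in siIrf1 TGFbeta and 5293 and 4669 CPM in siCtr TGFbeta. Krt8 was 2229, 2330 and 2012 CPM in siIrf1 0 d and 3162 and 2654 CPM in siCtr 0 d. The siCtr TGFbeta libraries were again the highest, but siIrf1 TGFbeta spread more than any other group and overlapped both 0 d groups. The TGFbeta effect was 0.65 ± 0.24 in siIrf1 cells (adjusted p = 0.085) and 0.78 ± 0.294 in siCtr cells (adjusted p = 0.0689), both just short of the threshold, and several other settings called them. In siIrf1 cells Krt8 was called higher by DESeq2 (0.68, adjusted p = 0.0422), with the GC and length trend removed (0.50, adjusted p = 0.0191), with the trend removed beside the replicate block (0.49, adjusted p = 0.0294) and without siIrf1 TGFbeta replicate 3 (0.90, adjusted p = 0.00367). In siCtr cells it was called higher with no filter (0.86, adjusted p = 0.0416), the stricter filter (0.88, adjusted p = 0.0492), DESeq2 (0.82, adjusted p = 0.033) and the compared groups alone (0.77, adjusted p = 0.0368). It was also called there with the trend removed (1.05, adjusted p = 0.000762), with the trend removed beside the block (1.09, adjusted p = 0.00319), and without siIrf1 TGFbeta replicate 2 (0.78, adjusted p = 0.0243) or replicate 3 (0.78, adjusted p = 0.00905). The interaction was -0.12 ± 0.378 (adjusted p = 0.889), and 0.13 without siIrf1 TGFbeta replicate 3. With TGFbeta Krt8 in siIrf1 cells differed from siCtr cells by -0.53 ± 0.265 (adjusted p = 0.209), and without siIrf1 TGFbeta replicate 2 it was lower (-0.81, adjusted p = 0.0328). The siRNA effect without TGFbeta was -0.41 ± 0.265 (adjusted p = 0.255), and 0.24 (adjusted p = 0.244) with the GC and length trend removed.

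Krt7, a type II chain of ducts and glands, was 396, 589 and 309 CPM in siIrf1 TGFbeta and 1050 and 953 CPM in siCtr TGFbeta. Krt7 was 220, 277 and 211 CPM in siIrf1 0 d and 148 and 144 CPM in siCtr 0 d. The 4 groups did not overlap, and their order was siCtr TGFbeta, siIrf1 TGFbeta, siIrf1 0 d and siCtr 0 d, from high to low. TGFbeta raised Krt7 by 0.87 ± 0.219 in siIrf1 cells (adjusted p = 0.0174) and by 2.78 ± 0.285 in siCtr cells (adjusted p = 6.51e-05). The call in siIrf1 cells was absent without siIrf1 0 d replicate 1 (0.82, adjusted p = 0.0739) or replicate 3 (0.80, adjusted p = 0.0766). The difference between these effects was -1.91 ± 0.348 (adjusted p = 0.0148), uncalled without siCtr TGFbeta replicate 2 (-1.92, adjusted p = 0.082) or replicate 3 (-2.04, adjusted p = 0.0566). With TGFbeta Krt7 was lower in siIrf1 than in siCtr cells (-1.22 ± 0.24, adjusted p = 0.00776), uncalled without siCtr TGFbeta replicate 2 (-1.20, adjusted p = 0.0614). Without TGFbeta the siRNA effect was 0.69 ± 0.249 (adjusted p = 0.058). It was called higher with no filter (0.72, adjusted p = 0.0467), by DESeq2 (0.70, adjusted p = 0.0307), with the replicate block (0.54, adjusted p = 0.0491) and in a fit of the compared groups alone (0.69, adjusted p = 0.0272). It was also called with the GC and length trend removed (1.15, adjusted p = 0.00208), with the trend removed beside the block (1.05, adjusted p = 0.00605), and without siIrf1 TGFbeta replicate 2 (0.69, adjusted p = 0.0118) or replicate 3 (0.69, adjusted p = 0.0265).

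Krt19, the smallest keratin and a marker of ductal epithelium, moved the other way. It was 884, 1397 and 568 CPM in siIrf1 TGFbeta and 332 and 282 CPM in siCtr TGFbeta. Krt19 was 2030, 2496 and 1870 CPM in siIrf1 0 d and 2412 and 2464 CPM in siCtr 0 d. The 0 d groups overlapped each other, siIrf1 TGFbeta lay below both, and siCtr TGFbeta lowest of all. Krt19 fell under TGFbeta in siIrf1 cells (-1.17 ± 0.277, adjusted p = 0.013, uncalled without siIrf1 TGFbeta replicate 1 at -1.12, adjusted p = 0.0533) and in siCtr cells (-2.99 ± 0.361, adjusted p = 0.000192). With TGFbeta it was higher in siIrf1 than in siCtr cells (1.63 ± 0.325, adjusted p = 0.00801), uncalled without siCtr TGFbeta replicate 2 (1.70, adjusted p = 0.0664) or replicate 3 (1.48, adjusted p = 0.0902). The interaction of 1.82 ± 0.437 was close to the threshold (adjusted p = 0.0487). It was uncalled with RLE size factors (1.81, adjusted p = 0.0504), without a filter (1.75, adjusted p = 0.0728), with a stricter filter (1.74, adjusted p = 0.072), and when any of 7 libraries was left out. These were siIrf1 TGFbeta replicate 1 (1.87), siCtr TGFbeta replicates 2 (1.86) and 3 (1.64), siIrf1 0 d replicates 1 (1.79), 2 (1.95) and 3 (1.74), and siCtr 0 d replicate 1 (1.80). Without TGFbeta the siRNA effect was -0.19 ± 0.305 (adjusted p = 0.65) and turned to 0.45 (adjusted p = 0.0477) with the GC and length trend removed.

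The balance of Krt7 and Krt19, which both pair within the simple epithelial network, changed accordingly. The log2 ratio of Krt7 to Krt19 per length was -1.26 ± 0.192 in siIrf1 TGFbeta, 1.54 ± 0.0664 in siCtr TGFbeta, -3.34 ± 0.0293 in siIrf1 0 d and -4.23 ± 0.0451 in siCtr 0 d. Krt7 transcripts exceeded Krt19 transcripts in siCtr TGFbeta alone, and with the longest annotated transcript as the length the ratios were -2.47, 0.33, -4.55 and -5.44 in the same order.

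**Figure D3:**
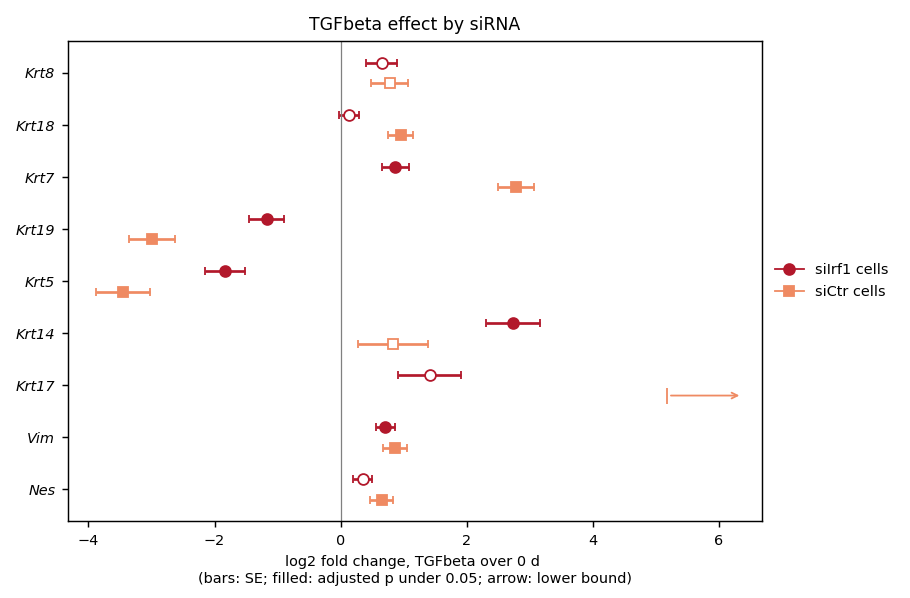
Log2 fold change of TGFbeta over 0 d (horizontal axis) for each gene in siIrf1 cells (circles) and siCtr cells (squares), with bars for the SE and filled symbols for an adjusted p under 0.05. Krt7, Krt19 and Krt5 lie farther from 0 in siCtr than in siIrf1 cells, and Vim lies at a like value in both. The arrow for Krt17 in siCtr cells starts at 36.3-fold, its ratio to a limit of 3 counts, because siCtr 0 d had no Krt17 count. That ratio leaves out counting error in siCtr TGFbeta.

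Krt5, the basal type II keratin, was at the low level of 3.37, 5.44 and 2.29 CPM in siIrf1 TGFbeta and 1.56 and 1.03 CPM in siCtr TGFbeta. Krt5 was 16, 12.7 and 11.2 CPM in siIrf1 0 d and 15.9 and 12.8 CPM in siCtr 0 d. The 0 d groups overlapped and lay above every TGFbeta library, and the TGFbeta groups did not overlap. Krt5 fell under TGFbeta in siIrf1 cells (-1.83 ± 0.318, adjusted p = 0.00226) and in siCtr cells (-3.45 ± 0.423, adjusted p = 2e-04). With TGFbeta it was higher in siIrf1 than in siCtr cells (1.50 ± 0.381, adjusted p = 0.0226), uncalled without siCtr TGFbeta replicate 2 (1.80, adjusted p = 0.0912) or replicate 3 (1.21, adjusted p = 0.196) and in a fit of the compared groups alone (1.50, adjusted p = 0.0744). The interaction was 1.61 ± 0.505 (adjusted p = 0.121) in edgeR and 1.60 (adjusted p = 0.0322) in DESeq2. The siRNA effect at 0 d was -0.11 ± 0.341 (adjusted p = 0.818), and it turned to 0.54 (adjusted p = 0.106) with the trend removed and to 0.04 without siCtr 0 d replicate 1.

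Krt14, the usual partner of Krt5 in basal cells, did not follow it. It was scarcer still, with 57, 121 and 32 counts (1.68, 1.75 and 0.963 CPM) in siIrf1 TGFbeta and 26 and 18 counts (0.484 and 0.6 CPM) in siCtr TGFbeta. Krt14 had 6, 12 and 7 counts (0.188, 0.271 and 0.185 CPM) in siIrf1 0 d and 3 and 15 counts (0.118 and 0.455 CPM) in siCtr 0 d. The siIrf1 TGFbeta libraries lay above all others. Krt14 rose with TGFbeta in siIrf1 cells (2.74 ± 0.427, adjusted p = 0.0011), and its change in siCtr cells was 0.83 ± 0.555 (adjusted p = 0.274), or 2.27 (adjusted p = 0.0345) without siCtr 0 d replicate 3. With TGFbeta it was higher in siIrf1 than in siCtr cells (1.46 ± 0.438, adjusted p = 0.0436), uncalled in a fit of the compared groups alone (1.46, adjusted p = 0.0545) and when any of 7 libraries was left out. These were siIrf1 TGFbeta replicates 1 (1.36) and 2 (1.30), siCtr TGFbeta replicates 2 (1.24) and 3 (1.56), and siIrf1 0 d replicates 1, 2 and 3 (1.46 each). The interaction was 1.91 ± 0.719 (adjusted p = 0.192), so the TGFbeta effects were not shown to differ. The siRNA effect at 0 d was -0.46 ± 0.566 (adjusted p = 0.559), and it turned to 0.12 with the trend removed and to 0.93 without siCtr 0 d replicate 3. The log2 ratio of Krt5 to Krt14 per length was 0.95 ± 0.32 in siIrf1 TGFbeta, 0.89 ± 0.642 in siCtr TGFbeta, 5.61 ± 0.43 in siIrf1 0 d and 5.60 ± 1.6 in siCtr 0 d.

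Krt17, a type I keratin of wounded skin and hair follicles, was present mainly in siCtr TGFbeta. It had 9, 21 and 4 counts (0.266, 0.304 and 0.12 CPM) in siIrf1 TGFbeta and 108 and 48 counts (2.01 and 1.6 CPM) in siCtr TGFbeta. Krt17 had 4, 4 and 2 counts (0.126, 0.0905 and 0.0528 CPM) in siIrf1 0 d and 0 and 0 counts in siCtr 0 d. Its change with TGFbeta in siIrf1 cells was 1.41 ± 0.503 (adjusted p = 0.0802), and 1.68 (adjusted p = 0.0387) without siIrf1 TGFbeta replicate 3. In siCtr cells Krt17 rose with TGFbeta (adjusted p = 0.000102). For the siCtr 0 d libraries 3 counts, or 0.0513 CPM, were taken as the limit that 0 counts allow for counting error. The siCtr TGFbeta level was 36.3 times that limit, a ratio that leaves out counting error in siCtr TGFbeta itself (1.53 to 2.11 CPM). With TGFbeta Krt17 was lower in siIrf1 than in siCtr cells (-2.90 ± 0.385, adjusted p = 0.00138), and this call held without any single library. Krt17 passed the filter only because of siCtr TGFbeta, the group where it was high, which limits this and its other calls. Without TGFbeta Krt17 was called higher in siIrf1 cells (adjusted p = 0.0391), a difference of 10 counts in 3 libraries against 0 in 2 libraries. Its level was 1.71 times the limit of 0.0513 CPM for siCtr 0 d. Counting error in the 10 counts (0.043 to 0.165 CPM) reaches below that limit, so no least fold can be given. The call was absent in 8 of the 10 fits that left out a library and with the stricter filter, which dropped the gene. Those 8 left out siIrf1 TGFbeta replicate 1 (adjusted p = 0.0562), siCtr TGFbeta replicates 2 (0.0594) and 3 (0.0572), siIrf1 0 d replicates 1 (0.0846), 2 (0.0625) and 3 (0.0546), and siCtr 0 d replicates 1 (0.146) and 3 (0.114). The interaction had an adjusted p of 0.0159 and was uncalled without siCtr TGFbeta replicate 2 (adjusted p = 0.0685) or siIrf1 0 d replicate 1 (adjusted p = 0.0548). Its fitted size, -7.74 ± 1.38, rests on a group with no count and has no fixed meaning. Keratin genes share stretches of sequence, and how reads that map to several genes were counted is not given in the sources used here, so the low counts of Krt14 and Krt17 are uncertain.

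Vim, the mesenchymal filament, was 2357, 2450 and 1725 CPM in siIrf1 TGFbeta and 1956 and 2050 CPM in siCtr TGFbeta. Vim was 1389, 1346 and 1270 CPM in siIrf1 0 d and 1212 and 989 CPM in siCtr 0 d. Every TGFbeta library lay above every 0 d library, and the TGFbeta groups overlapped. Vim was thus already abundant without TGFbeta, and it rose with TGFbeta by 0.71 ± 0.156 in siIrf1 cells (adjusted p = 0.00846) and by 0.86 ± 0.192 in siCtr cells (adjusted p = 0.00656). These calls held without any single library. The siRNA effect was 0.12 ± 0.174 with TGFbeta (adjusted p = 0.7) and 0.28 ± 0.175 without it (adjusted p = 0.24), and the interaction was -0.16 ± 0.246 (adjusted p = 0.766).

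Nes, whose large protein co-assembles with vimentin, was 73.7, 73.1 and 56.4 CPM in siIrf1 TGFbeta and 85 and 77.6 CPM in siCtr TGFbeta. Nes was 55.7, 53.2 and 50.8 CPM in siIrf1 0 d and 50.2 and 53.7 CPM in siCtr 0 d. The TGFbeta libraries all lay above the 0 d libraries, by a narrow margin for siIrf1 TGFbeta replicate 3. In siIrf1 cells the change of Nes with TGFbeta was 0.35 ± 0.146 (adjusted p = 0.127), with 0.37 (adjusted p = 0.045) by DESeq2 and 0.46 (adjusted p = 0.0388) without siIrf1 TGFbeta replicate 3. Nes rose with TGFbeta in siCtr cells (0.65 ± 0.179, adjusted p = 0.0194), uncalled without siCtr TGFbeta replicate 2 (0.67, adjusted p = 0.0922) or siCtr 0 d replicate 1 (0.64, adjusted p = 0.0841) and with the GC and length trend removed (0.43, adjusted p = 0.0513). The siRNA effect was -0.26 ± 0.162 with TGFbeta (adjusted p = 0.309) and 0.03 ± 0.163 without it (adjusted p = 0.886), and this last value was 0.42 (adjusted p = 0.0474) with the trend removed and -0.02 without siCtr 0 d replicate 1.

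**Figure D4:**
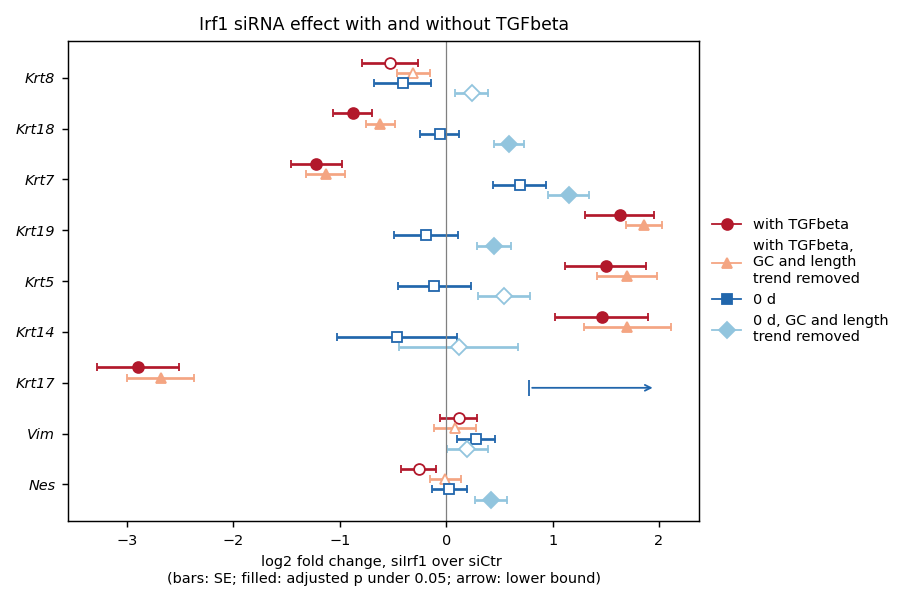
Log2 fold change of siIrf1 over siCtr (horizontal axis) for each gene with TGFbeta (circles) and at 0 d (squares), and the same after removal of the GC and length trend (triangles and diamonds), with bars for the SE and filled symbols for an adjusted p under 0.05. With TGFbeta, Krt18, Krt7 and Krt17 lie left of 0 and Krt19, Krt5 and Krt14 right of it in both versions, while at 0 d removing the trend moves the keratins to the right and turns the sign of Krt8, Krt18, Krt19, Krt5 and Krt14. The arrow for Krt17 at 0 d starts at 1.71-fold, its ratio to a limit of 3 counts in siCtr 0 d. Counting error in siIrf1 0 d reaches below that limit, so the arrow is not a firm lower bound.

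Likeness of profiles was measured over the 10 libraries, against genes that average 10 CPM or more. It was the root mean square difference of the log2 of CPM plus 0.05, centred for each gene. These values describe the 10 libraries, which share siRNA, TGFbeta and GC differences, and carry no test. Those of Krt17, with 0 counts in siCtr 0 d, depend on the 0.05 added. Among the 9 genes the nearest pair was Krt8 and Krt18 (0.23), followed by Krt18 and Nes (0.24) and Vim and Nes (0.24), while Krt5 and Krt19 were at 0.34. The pair of basal keratins Krt5 and Krt14 was far apart (2.27), as were Krt5 and Krt17 (3.03). Nearest to Krt8 among all genes were Rom1 (0.11), Dnpep (0.14) and Fchsd1 (0.15), and nearest to Krt18 were Bcar3, Trip10 and Msantd3 (0.14 each). Krt19 was nearest to Proser2 (0.23), Rapgef3 (0.27) and Cdkn2c (0.30), Krt5 to Selenbp1 (0.22), then Krt19 itself and Arhgap40 (0.36), and Krt7 to Rgs12 (0.27), Dusp5 (0.28) and Dyrk3 (0.28). Vim was nearest to Scara3 (0.09), Slc66a2 (0.09) and Klhl22 (0.11), and Nes to Cyth3 (0.11), Polr3e (0.11) and Ctbp2 (0.12). The rare transcripts had looser neighbours, Lmcd1 (0.46), Fbxo32 (0.66) and Siglecg (0.71) for Krt17 and Slc41a3 (0.39), Rassf8 (0.45) and 4933411K16Rik (0.54) for Krt14. For each of Krt8, Krt18 and Vim, 1.12 to 1.39% of these genes lay within a difference of 0.25, and for Nes 6.09%, so closeness to these genes is common.

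Of 47 other keratin genes listed, 7 had no count and 10 were tested, and 5 reached 5 CPM in a group. With TGFbeta 5 of the 10 rose and 2 fell in siIrf1 cells, beside 11.6% and 9.71% of all genes, and 4 rose and 2 fell in siCtr cells, beside 16.1% and 16.3%. Krt20, an intestinal and urothelial type I keratin, was 321 ± 13.4 CPM in siIrf1 TGFbeta and 273 ± 18.5 CPM in siCtr TGFbeta. Krt20 was 106 ± 4.97 CPM in siIrf1 0 d and 67.1 ± 11.9 CPM in siCtr 0 d. It rose with TGFbeta in siIrf1 cells (1.60 ± 0.134, adjusted p = 2.19e-05) and in siCtr cells (2.02 ± 0.167, adjusted p = 1.38e-05). It was also higher in siIrf1 than in siCtr cells at 0 d (0.65 ± 0.15, adjusted p = 0.00994), uncalled without siCtr 0 d replicate 1 (0.47, adjusted p = 0.125). Krt80 likewise rose in siIrf1 cells (1.24 ± 0.22, adjusted p = 0.00245), at 54 ± 9.83 CPM with TGFbeta against 22.9 ± 5.86 CPM at 0 d. It rose in siCtr cells too (1.74 ± 0.274, adjusted p = 0.000846), at 59.6 ± 5.37 CPM with TGFbeta against 17.8 ± 1.55 CPM at 0 d.

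Krt4, a keratin of wet stratified epithelium, and Krt23, a type I keratin of glandular epithelia, fell with Krt5 and Krt19. Krt4 was 0.8 ± 0.173 CPM in siIrf1 TGFbeta and 0.289 ± 0.0146 CPM in siCtr TGFbeta. Krt4 was 20.4 ± 3 CPM in siIrf1 0 d and 9.4 ± 2.92 CPM in siCtr 0 d. It fell under TGFbeta in siIrf1 cells (-4.64 ± 0.271, adjusted p = 2.79e-06) and in siCtr cells (-5.01 ± 0.361, adjusted p = 6.8e-06), and it was higher in siIrf1 than in siCtr cells at 0 d (1.12 ± 0.262, adjusted p = 0.0108). With TGFbeta it was higher in siIrf1 cells too (1.49 ± 0.345, adjusted p = 0.0144), uncalled without siCtr TGFbeta replicate 2 (1.38, adjusted p = 0.152) or replicate 3 (1.49, adjusted p = 0.0917). Krt23 was 2.09 ± 0.607 CPM in siIrf1 TGFbeta and 0.723 ± 0.391 CPM in siCtr TGFbeta. Krt23 was 10.4 ± 0.906 CPM in siIrf1 0 d and 15.3 ± 0.173 CPM in siCtr 0 d. Its fall with TGFbeta was -2.30 ± 0.293 in siIrf1 cells (adjusted p = 0.000309) and -4.46 ± 0.406 in siCtr cells (adjusted p = 2.62e-05), and it was higher in siIrf1 TGFbeta than in siCtr TGFbeta (1.60 ± 0.367, adjusted p = 0.014, uncalled without siCtr TGFbeta replicate 2 at 1.03, adjusted p = 0.195, and in a fit of the compared groups alone at 1.59, adjusted p = 0.07). Its interaction of 2.16 ± 0.474 (adjusted p = 0.0349) was uncalled with the stricter filter (2.07, adjusted p = 0.0518) and when any of 6 libraries was left out, namely siIrf1 TGFbeta replicate 3 (2.18), siCtr TGFbeta replicate 2 (1.55), siIrf1 0 d replicates 1 (2.22), 2 (2.13) and 3 (2.10), and siCtr 0 d replicate 1 (2.12). Krt79 (12.7 ± 3.73, 7.19 ± 0.328, 9.54 ± 0.847 and 7.04 ± 1.09 CPM in the same order of groups) was called in no comparison.

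**Figure D5:**
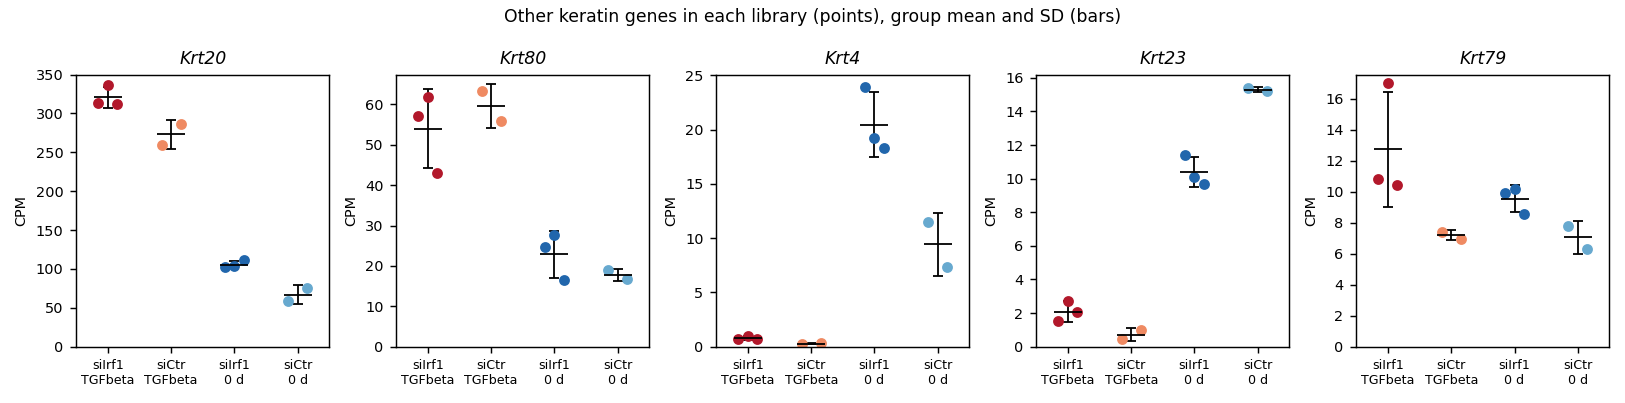
CPM (vertical axis, linear, from 0, scaled per panel) of the other keratin genes that reached 5 CPM in a group, where each point is a library and the bars show mean ± SD (n = 3 in siIrf1 groups, n = 2 in siCtr groups). Krt20 and Krt80 are higher, and Krt4 and Krt23 lower, in every TGFbeta library than in every 0 d library.

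Of 16 other intermediate filament genes 8 were tested, and with TGFbeta 2 rose and 3 fell in siIrf1 cells (21.3% of all genes called) and 2 rose and 2 fell in siCtr cells (32.5% of all genes called). Iffo2 rose in both siIrf1 cells (0.80 ± 0.145, adjusted p = 0.0028) and siCtr cells (1.27 ± 0.18, adjusted p = 0.000446). The nuclear lamin gene Lmnb1 averaged 104 ± 11.6 CPM in siIrf1 TGFbeta and 102 ± 1.94 CPM in siCtr TGFbeta. Lmnb1 was 143 ± 3.33 CPM in siIrf1 0 d and 168 ± 30.1 CPM in siCtr 0 d. Synm, whose product synemin co-assembles with vimentin, was 4.82 ± 0.877 CPM in siIrf1 TGFbeta and 7.59 ± 1.17 CPM in siCtr TGFbeta. Synm was 9.8 ± 1.27 CPM in siIrf1 0 d and 5.24 ± 1.47 CPM in siCtr 0 d. It fell in siIrf1 cells given TGFbeta (-1.03 ± 0.23, adjusted p = 0.00902), and its change in siCtr cells was 0.53 ± 0.282 (adjusted p = 0.171).

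Genes whose products tie keratin filaments to desmosomes, hemidesmosomes and other parts of the cell moved mostly upward with TGFbeta where they were called. Of 18 such genes 17 were tested. In siIrf1 cells 7 rose and 2 fell, beside 11.6% and 9.71% of all genes, and in siCtr cells 6 rose and 2 fell, beside 16.1% and 16.3%, with a median log2 fold change of 0.88 in siIrf1 and 1.08 in siCtr cells beside 0.02 for all genes in both. The desmosomal plaque gene Pkp2 rose in siIrf1 cells (0.88 ± 0.128, adjusted p = 0.000721) and in siCtr cells (1.13 ± 0.158, adjusted p = 0.000403). Its relative Pkp1 was 2.33 ± 0.357 CPM in siIrf1 TGFbeta and 24.4 ± 1.34 CPM in siCtr TGFbeta. Pkp1 was 0.0854 ± 0.0552 CPM in siIrf1 0 d and 0.0393 ± 0.0555 CPM in siCtr 0 d. Like Krt17, Pkp1 was thus found mainly in siCtr TGFbeta, and with TGFbeta it was lower in siIrf1 than in siCtr cells (-3.38 ± 0.337, adjusted p = 0.000227). Pkp1 (at most 0.136 CPM) and another gene of this list, Col17a1 (at most 0.22 CPM), lay under 0.298 CPM in every 0 d library. Both were tested only because of the TGFbeta libraries where they were higher, which limits the counts that include them. Ppl, which encodes the cytolinker periplakin, fell under TGFbeta in siIrf1 cells (-1.85 ± 0.146, adjusted p = 1.54e-05) and in siCtr cells (-2.96 ± 0.186, adjusted p = 4.16e-06), and at 0 d it was lower in siIrf1 cells (214 ± 9.51 CPM) than in siCtr cells (596 ± 119 CPM; -1.48 ± 0.156, adjusted p = 0.000387). Tchp, whose product trichoplein binds the Krt8 and Krt18 filament, fell in siIrf1 cells (-1.09 ± 0.196, adjusted p = 0.00257) and in siCtr cells (-2.10 ± 0.247, adjusted p = 0.000139). In the siRNA comparisons 3 of the 17 were lower in siIrf1 cells with TGFbeta and 4 were lower at 0 d, beside 8.28% and 15.5% of all genes called lower and 18.0% and 31.8% called in either direction. The others were uncalled.

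Of 16 transcription factors described as acting on keratin, vimentin or other epithelial genes 11 were tested, and with TGFbeta 5 rose in siIrf1 cells (11.6% of all genes rose) and 6 rose and 2 fell in siCtr cells (16.1% of all genes rose and 16.3% fell). Snai1, the Snail repressor that binds CACCTG, was 6.05 ± 1.81 CPM in siIrf1 TGFbeta and 13.1 ± 2.68 CPM in siCtr TGFbeta. Snai1 was 0.429 ± 0.0297 CPM in siIrf1 0 d and 0.252 ± 0.143 CPM in siCtr 0 d. It rose in siIrf1 cells (3.81 ± 0.327, adjusted p = 2.52e-05) and in siCtr cells (5.73 ± 0.45, adjusted p = 1.1e-05). Zeb2, a repressor of the same E-box, rose in siIrf1 cells (2.48 ± 0.469, adjusted p = 0.00372) and in siCtr cells (4.52 ± 0.661, adjusted p = 0.000596). Of the 4 genes with CACCTG in the windows printed above, Krt18 and Krt7 rose and Krt5 fell in the siCtr cells where Snai1 and Zeb2 rose, and Krt8 was uncalled. Whether these factors act on the 4 genes was not tested. Fosl1, an AP-1 subunit, was lower in siIrf1 than in siCtr cells both with TGFbeta (3.65 ± 0.768 against 23.9 ± 2.47 CPM; -2.71 ± 0.255, adjusted p = 0.000164) and at 0 d (4.84 ± 1.21 against 28.4 ± 0.709 CPM; -2.55 ± 0.254, adjusted p = 0.000302). Grhl2, an epithelial factor, was lower in siIrf1 TGFbeta (0.211 ± 0.0751 CPM) than in siCtr TGFbeta (1.27 ± 0.000222 CPM; -2.59 ± 0.318, adjusted p = 0.000708). It lay under 0.298 CPM, the level of the filter, in all 6 siIrf1 libraries and so was tested only because of the siCtr libraries where it was higher.

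Markers of other cell types were checked beside the filament genes. The luminal genes Esr1, Pgr, Prlr, Kit, Csn2, Wap and Lalba had no count in any library, and of 15 luminal markers 5 were tested. Of these 1, Areg, rose with TGFbeta under either siRNA, beside 11.6% of all genes in siIrf1 and 16.1% in siCtr cells. The summed level of the luminal list was 532 to 890 CPM in siIrf1 TGFbeta and 780 to 802 CPM in siCtr TGFbeta. That sum was 841 to 1069 CPM in siIrf1 0 d and 408 to 821 CPM in siCtr 0 d. Most of it was Cd24a, at 379 to 1033 CPM in a library. The basal regulator Trp63 averaged at most 0.0499 CPM in a group, although smooth muscle genes of the basal list were expressed, such as Acta2 at 13.6 ± 4.6 CPM in siIrf1 TGFbeta and 10.2 ± 2.35 CPM in siCtr TGFbeta. Acta2 was 0.415 ± 0.0653 CPM in siIrf1 0 d and 0.36 ± 0.176 CPM in siCtr 0 d. Of 9 basal and myoepithelial markers 5 were tested, 3 rose with TGFbeta in siIrf1 cells (11.6% of all genes rose), and 3 rose and 1 fell in siCtr cells (16.1% of all genes rose and 16.3% fell). Cdh3, which rose under either siRNA, lay under 0.298 CPM in every 0 d library (at most 0.212 CPM). It was thus tested only because of the TGFbeta libraries where it was higher. The most abundant gene of the basal list, the myosin kinase gene Mylk, rose in siIrf1 cells (0.74 ± 0.18, adjusted p = 0.0146), at 105 ± 21.3 CPM with TGFbeta against 62.9 ± 11.5 CPM at 0 d. Mylk fell in siCtr cells (-1.30 ± 0.224, adjusted p = 0.00147), at 53.7 ± 0.392 CPM with TGFbeta against 133 ± 5.36 CPM at 0 d. The summed level of the basal list was 107 to 139 CPM in siIrf1 TGFbeta, 68.5 to 71.5 CPM in siCtr TGFbeta, 58.6 to 79.3 CPM in siIrf1 0 d and 131 to 139 CPM in siCtr 0 d. The libraries thus carried the simple epithelial keratins with some luminal and basal markers, while other markers of both lists had few or no counts. The summed level of 9 fibroblast and pericyte markers was 27.2 to 31.4 CPM in siIrf1 TGFbeta, 34.5 to 39 CPM in siCtr TGFbeta, 0.905 to 1.1 CPM in siIrf1 0 d and 0.515 to 0.589 CPM in siCtr 0 d. It was higher with TGFbeta, as Vim was, but by far more than the 1.63-fold and 1.82-fold of Vim in siIrf1 and siCtr cells. In that list 3 of 4 tested members rose under either siRNA, beside 11.6% of all genes in siIrf1 and 16.1% in siCtr cells. Of these, Pdgfrb (at most 0.0628 CPM) and Pdgfra (at most 0.251 CPM) lay under 0.298 CPM, the level of the filter, in every 0 d library. Both were thus tested only because of the TGFbeta libraries where they were high, which limits this count. Col1a2, Lum and Thy1 had no count in any library. In bulk samples fewer cells of a type and less RNA per cell cannot be told apart. The summed level of neural and glial markers, some of which share expression with nestin, was 4.72 to 12.8 CPM in siIrf1 TGFbeta, 20.7 to 27.5 CPM in siCtr TGFbeta, 1.27 to 1.44 CPM in siIrf1 0 d and 1.79 to 1.96 CPM in siCtr 0 d, with Map2 at no count. That of endothelial markers was 1.52 to 1.86 CPM in siIrf1 TGFbeta, 5.16 to 5.92 CPM in siCtr TGFbeta, 0 to 0.158 CPM in siIrf1 0 d and 0.152 to 0.157 CPM in siCtr 0 d. That of immune markers was 42 to 58 CPM in siIrf1 TGFbeta, 38.6 to 41 CPM in siCtr TGFbeta, 39.5 to 46.3 CPM in siIrf1 0 d and 27.4 to 36.1 CPM in siCtr 0 d. With TGFbeta most of the neural and glial sum was Tubb3, averaging 8.87 CPM in siIrf1 and 23.1 CPM in siCtr cells. Most of the endothelial sum there was Cdh5, averaging 1.64 CPM in siIrf1 and 5.42 CPM in siCtr cells. Most of the immune sum was Csf1r, averaging 46.8, 33.1, 39.9 and 29.7 CPM in the same order of groups. Ptprc averaged at most 0.779 CPM in a group, and Adgre1 and Cd3e had no count in any library. The part of these markers in the results was not tested.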

How the data were processed

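Per the labels' protocols, stranded Illumina libraries were made from total RNA. The deposited file gives raw read counts (whole numbers, not normalized) of each gene in the 10 libraries and a gene length in bases that the authors supplied. Per the submitters' processing notes, STAR aligned the reads to mm10 (GRCm38). The STAR version, the counter, the strand setting and the handling of multiply mapped reads are not given in the sources used. Entrez identifiers were named from RefSeq (GRCm38.p6; 24374) or GENCODE (7), and 73 stayed unnamed (0.211 to 1.5% of a library's counts). Groups follow the siRNA and time labels. No library was a copy of another, since replicates differed beyond counting noise with a chi-square of 25.4 to 321 per degree of freedom.

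The main test was edgeR 4.0.16 under R 4.3.3 (TMM factors, filterByExpr, robust quasi-likelihood F test), fitted once to the 10 libraries by group. Residual degrees of freedom were 6, the median prior 4.15 and the biological coefficient of variation 0.225. Each SE was derived as the size of the log2 fold change over the root of its F. Libraries that share a replicate number were compared by their departures from the group means, which correlated at -0.659 to 0.522, with 8 of 12 over 0.1. Between siIrf1 TGFbeta and siIrf1 0 d all 3 were over 0.1 (0.114 to 0.522), and the numbers were taken to pair the libraries there. No label states this, and the correlations do not single it out. Replicate 1 of siIrf1 TGFbeta correlated at 0.452 with replicate 3 of siIrf1 0 d but at 0.114 with replicate 1. The pairing is thus an assumption.

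The members, gene lists and alternatives were chosen with earlier results of these data known. Named are all 9 members, other Krt genes averaging 5 CPM or more in a group, and the 3 nearest profiles per member. Up to 3 called genes per list and comparison are named too (not all are printed, and some are given by level only). Irf1, Cdh1 and Fn1 are named as checks. Alternatives were RLE size factors, no filter, a stricter filter (2 CPM in 3 libraries), DESeq2 1.42.0, the replicate block, removal of a GC and length trend by offsets (GC content known for 99.1% of genes tested), the compared groups alone, the longest annotated transcript as length, and leaving out each library. The block within the compared groups alone was chosen after seeing the data. Floors cover counting error in the group with no count only.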

Additional observations from a re-analysis of the deposited data

Results flagged for a closer look

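The TGFbeta effect differed between siIrf1 and siCtr cells by the interaction test in edgeR for 3 of the 9 genes, against 4.12% of all genes. For Krt7 the effect in siIrf1 cells minus that in siCtr cells was -1.91 (0.87 against 2.78, both log2). That call was absent without siCtr TGFbeta replicate 2 (-1.92) or replicate 3 (-2.04). For Krt17 the fitted difference was -7.74, where siCtr 0 d had no count, so that its size depends on how the fit treats 0. Its call was absent without siCtr TGFbeta replicate 2 or siIrf1 0 d replicate 1. For Krt19 it was 1.82 (-1.17 against -2.99), a call that 3 other settings and 7 of the 10 fits without a library did not make. The 3 genes are those for which the test passed the threshold, and no explanation was weighed. Groups of 2 or 3 libraries are too small for a test of outlying samples.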

How the results depend on the processing

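Over all alternatives, 706 of 796 values of the 9 genes kept their direction and their side of the threshold, 44 lost a call, 31 gained one and 15 changed sign. For the TGFbeta effects, 136 of 147 values under other settings and 169 of 180 without a library kept both, and 0 changed sign. For a library left out, a group of 2 keeps 1 library, which is then assumed to vary like the other groups. The cause of the changes was not tested.

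The sign changes were almost all in siIrf1 without TGFbeta. With the GC and length trend removed the values there were 0.54 for Krt5, 0.24 for Krt8, 0.12 for Krt14, 0.59 for Krt18 and 0.45 for Krt19. With the replicate block and the trend removed they were 0.49, 0.23, 0.19, 0.65 and 0.40 in the same order. Some uncalled values moved there without a change of sign. The interaction of Krt8 was -0.59 against -0.12 in the main fit, and the siRNA effect on Nes with TGFbeta was -0.07 against -0.26. For Vim the siRNA effect at 0 d was 0.14 against 0.28, and for Nes the TGFbeta effect in siIrf1 cells was 0.00 against 0.35. Without a single library the values there ranged from -0.27 to 0.04 for Krt5, -0.14 to 0.09 for Krt18, -0.02 to 0.15 for Nes and -1.06 to 0.93 for Krt14, and in the interaction from -0.40 to 0.13 for Krt8.

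In siIrf1 without TGFbeta, 2 members were called higher with no filter, with DESeq2 and with the replicate block, 0 with the stricter filter, 5 with the trend removed and 4 with the block and the trend removed (4604 of all genes called). With DESeq2, 5 members rose with TGFbeta in siIrf1 cells and 2 had a positive interaction among 1171 genes called. With the trend removed 4244 genes were called for TGFbeta in siIrf1 cells, 3574 for siIrf1 with TGFbeta and 1165 for the interaction. A fit of the compared groups alone called 1 member higher in siIrf1 with TGFbeta. In the interaction 0 members were positive with RLE size factors, no filter or the stricter filter, which left 1 negative. Where no number of all genes called is given for a fit, its count of members has no background beside it.

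The replicate block changed no call of the 9 genes for TGFbeta in siIrf1 cells, where the numbers were assumed to pair the libraries (3046 genes called against 2799 without the block, and Krt7 0.84, Krt14 2.75, Vim 0.70, Krt5 -1.90 and Krt19 -1.23), nor did the block in a fit of those groups alone (3141 genes) for the 8 members it tested, which leave out Krt17. Elsewhere the libraries share a number and a second code in their titles, whose meaning the labels do not state, and each comparison has fewer than 3 such pairs. There the block brought Krt7 at 0 d to 0.54 (adjusted p = 0.0491) and Krt14 with TGFbeta to 1.52 (adjusted p = 0.0705) between the siRNAs, and it left 4347 genes called for TGFbeta in siCtr cells, 5233 for siIrf1 without TGFbeta, 2230 with it and 522 for the interaction.

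Without a single library, genes called ranged from 2297 to 5159 for TGFbeta in siCtr cells (4267 with all), 1700 to 5192 for siIrf1 without TGFbeta (4175), 762 to 2978 for siIrf1 with TGFbeta (2365) and 122 to 1590 for the interaction (541). Members called ranged from 2 to 6 higher and 1 to 2 lower for TGFbeta in siIrf1 cells, 0 to 2 higher for siIrf1 without TGFbeta, 0 to 3 higher and 1 to 4 lower for siIrf1 with TGFbeta, and 0 to 1 positive and 0 to 2 negative for the interaction. For TGFbeta in siIrf1 cells the number of all genes called in these fits is not given, so its range of members has no background beside it. Depth limits the values of Krt17 and Krt14, which rest on 0 to 121 counts in a library.

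With the longest annotated transcript as the length, the Krt7 share was 1.97% in siIrf1 TGFbeta, 2.97% in siCtr TGFbeta, 1.12% in siIrf1 0 d and 0.619% in siCtr 0 d, and the log2 ratio of Krt7 to Krt19 was -2.47, 0.33, -4.55 and -5.44 in that order. That of Vim to Krt8 was -1.19, -1.89, -1.29 and -1.98. The Krt18 share in siCtr TGFbeta was 63.8%, the Krt8 share in siIrf1 0 d 21.8% and the log2 ratio of Krt8 to Krt18 in siCtr 0 d -0.87. The summed keratins came to 8239 CPM per kb in siCtr TGFbeta and 5137 in siIrf1 0 d, and the log2 ratio of type II to type I chains to -0.97 in siCtr TGFbeta, -1.74 in siIrf1 0 d and -1.48 in siCtr 0 d.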
